A study of Mus musculus with 6 samples.

Results

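Molecular chaperones of the cytosol, with the chaperonin CCT and prefoldin, were followed as 33 genes among the 54532 genes of a count table from AML12 cells. The genes were taken by symbol and fell into 10 heat-inducible chaperones and cochaperones, 6 constitutive ones, 3 mitochondrial ones, 2 heat shock factors, 8 CCT subunits and 4 prefoldin subunits. All 33 were present in the table. AML12 is a mouse hepatocyte line kept in culture, described in the labels as wild type and as parenchymal hepatic cells. RNA of 6 samples was sequenced after 24 h of treatment, 3 labelled PP (250 µg/ml) and 3 labelled PA/OA. PA and OA form the reagent by which the study made its disease model, and their stated doses are 400 nM for PA and 800 nM for OA. The series title names Camellia oleifera meal peptides, and the labels do not spell out PP. The labels name PP alone for the first group, and whether PA/OA was given to those cells too is left unsaid in the design text. Untreated cells were not analysed here, so each value below sets PP against PA/OA and neither against an untreated state. Separate cultures are not stated for the samples of a group, so p-values measure the spread between these samples, which may be technical.

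Chaperones of the HSP70 family bind exposed hydrophobic stretches of unfolded proteins and release them in cycles of ATP hydrolysis. J-domain proteins bring clients to HSP70 and stimulate its ATPase, HSP110 proteins exchange its nucleotide, and HSP90 takes over clients such as kinases and steroid receptors at a late stage of folding. Prefoldin hands newly made actin and tubulin to CCT, a double-ring chaperonin whose rings each hold 8 different subunits. Upon heat or proteotoxic stress, the transcription factor HSF1 binds heat shock elements, which are inverted repeats of the letters GAA, and raises the inducible chaperones. In liver cells, which make large amounts of secreted protein, the same stress-inducible genes are commonly read as signs of disturbed protein folding.

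Levels are given as TMM-scaled CPM, the counts set against library totals after correction for composition. Library totals were 27418502, 32560589 and 31832239 counts for PP replicates 1 to 3, and 26825673, 26040579 and 24113169 counts for PA/OA replicates 1 to 3. The hepatocyte markers were uneven. Of the 7 tested 2 were called higher in PP and 2 lower, against 35.1% and 39.9% of all genes tested. Krt18 was at 1730 CPM in PP and 975 CPM in PA/OA, and Krt8 at 1994 CPM in PP and 1775 CPM in PA/OA. Hnf4a was at 26.8 CPM in PP and 71.7 CPM in PA/OA, and Alb at 9.90 CPM in PP and 12.2 CPM in PA/OA. Fgb had 0 counts in 5 of 6 libraries. Krt19, a cholangiocyte keratin, was at 3513 CPM in PP and 2011 CPM in PA/OA, while Epcam had 0 counts throughout. Of the 4 macrophage markers, Cd68, a lysosomal protein gene, was at 27.3 CPM in PP and 2.78 CPM in PA/OA, Adgre1 had 0 counts in every library, and Csf1r and Ptprc stayed under 1 CPM on average in both groups. Their summed level ran from 26.6 to 29.5 CPM in PP and from 3.13 to 3.79 CPM in PA/OA. The part of these marker differences in the results below was not tested. In bulk RNA, fewer cells of a type and less RNA per cell cannot be told apart.

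The comparison of PP with PA/OA asked how the folding machinery stood in the PP samples. The folding genes did not move as a block. In PP, mRNA was more abundant for the HSP110 gene Hspa4l, the heat shock factor gene Hsf2, the J-domain gene Dnajb1, Cryab and the prefoldin gene Pfdn5, and less abundant for the CCT subunit gene Cct3 and the HSP90 cochaperone gene Chordc1. Of the 31 members with enough counts to be tested, 22 were higher in PP, 8 were lower and 1 did not pass, at an adjusted p of 0.05 (edgeR's quasi-likelihood F-test, Benjamini-Hochberg over all genes). Scaled by library size alone, 11 members rose and 13 fell (20.6% and 56.7% of all genes), and under upper-quartile scaling 15 rose and 8 fell (27.0% and 48.9% of all genes), so the split between directions depended on how libraries were scaled. Calls were common in the whole table, where 75.0% of 15718 genes tested passed, 35.1% higher and 39.9% lower. In 30 of the 31 members the 3 PP values lay wholly above or below the 3 PA/OA values, against 77.4% of all genes tested. A change of at least 2-fold was reached by 4 members upwards and 2 downwards, against 36.6% of all genes tested in either direction. The 2 downwards were Cct3 and Hspb1. Hspb1, also among the 8 lower members, had few counts and passed the filter through the PA/OA libraries, where it was higher.

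Most members are abundant, and abundant genes as a whole were higher in PP. The median log2 fold change, PP over PA/OA, was 0.36 over the members, -0.09 over all genes tested and 0.35 over the 5769 genes whose average log2 CPM reached 5. Of the 29 members at that abundance 72.4% were higher in PP and 24.1% lower, against 60.8% and 24.8% of the 5769 genes (85.6% in either direction, with groups not overlapping in 86.4%). The members' counts are thus near those of the 5769 genes. That set is bounded only from below and not matched to the members, which reach an average log2 CPM of 11.4 (Hsp90ab1). After the trend of each library with abundance was removed, 12 members were higher and 16 lower (35.7% and 35.4% of all genes tested). The median was then -0.16 over the members and 0.009 over all genes tested. In each of 4 scalings (TMM, DESeq2 size factors, library size, upper quartile), and also after the trend of each library with abundance was removed, 9 members were higher and 7 lower in PP. All 16 are among the 29 abundant members. The same held for 20.0% higher and 29.4% lower of all genes tested, and for 35.5% higher and 24.8% lower of the 5769 abundant genes, so these counts too are near the background. The higher ones were Dnajb1, Cryab, Bag3, Hspa4, Hspa4l, Hsf2, Tcp1, Cct4 and Pfdn5, and the lower ones Hsph1, Chordc1, Dnaja1, Hspd1, Hsf1, Cct3 and Cct6a.

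**Figure D1:**
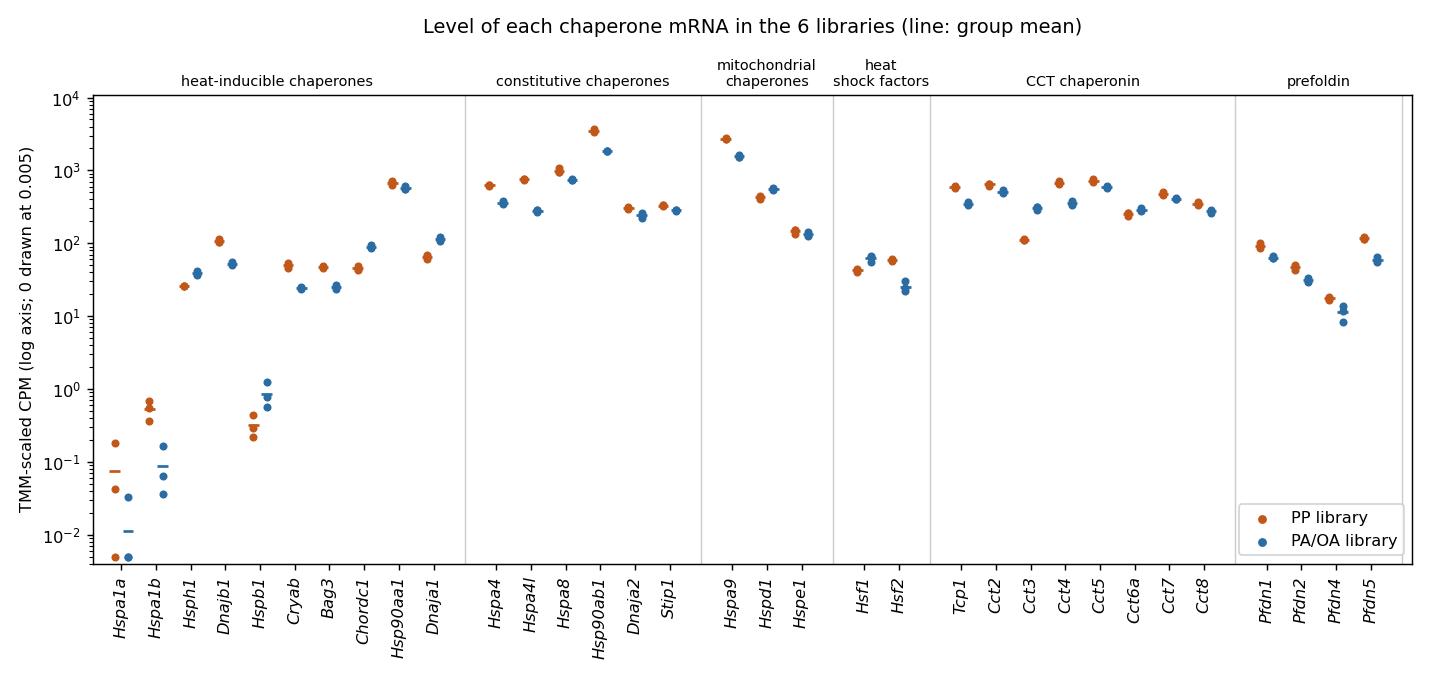
TMM-scaled CPM (log axis) of each member, by class, with PP left of PA/OA; points are the 3 libraries of a group and lines the group means, with 0 drawn at 0.005. The levels of Hspa4l in PP, at 735 to 766 CPM, stand far above those in PA/OA, at 271 to 287 CPM, and Cct3 stands the other way round.

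**Figure D2:**
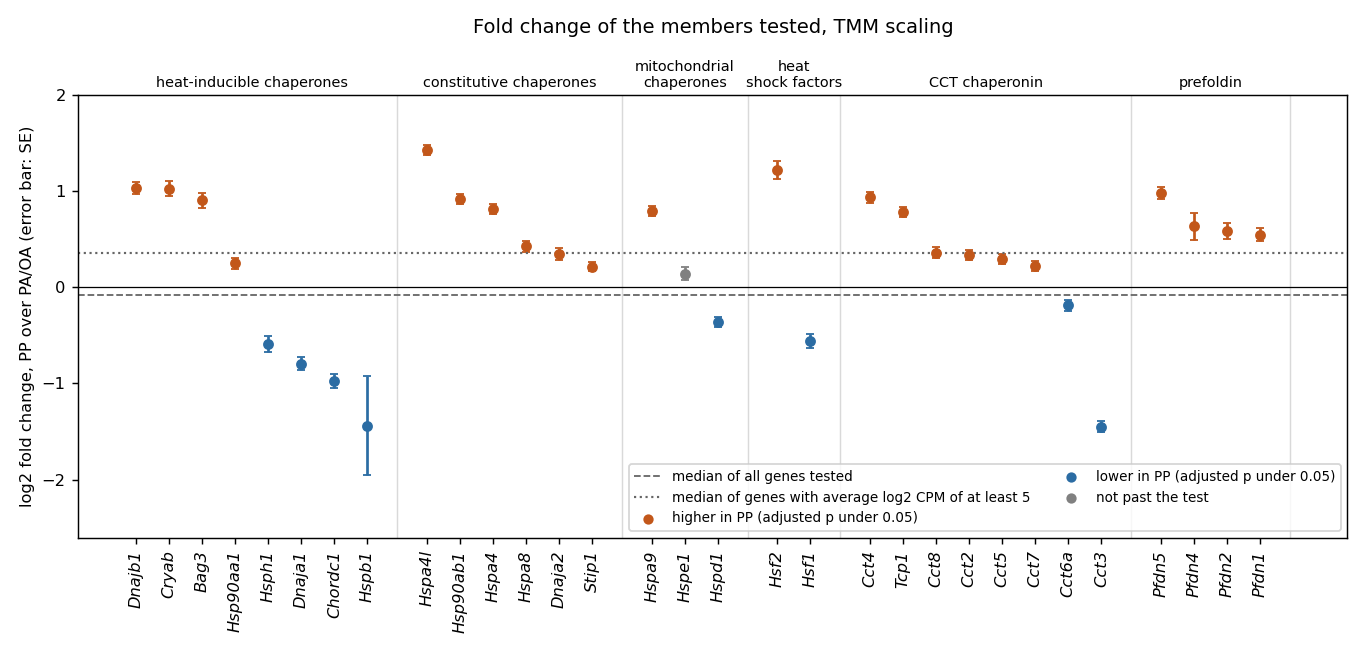
Log2 fold change of PP over PA/OA for the 31 members tested, by class, with the SE as error bar and TMM scaling. Values run from -1.45 for Cct3 to 1.42 for Hspa4l, and the constitutive chaperones and prefoldin subunits all lie above 0 under this scaling.

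The heat shock factors moved apart. Hsf2 encodes the factor known for roles in development and in modulating the heat shock response, and lies on mm10 chromosome 10 from 57486385 to 57513135. It was at 61.2, 58.6 and 57.6 CPM in PP replicates 1 to 3, against 24.2, 30.0 and 21.9 CPM in PA/OA replicates 1 to 3. Every PP library was thus well above every PA/OA library. Its log2 fold change was 1.22 ± 0.09 (SE, adjusted p = 9.32e-11, edgeR). Hsf1, the main activator of heat-inducible genes, was at 44.4, 40.2 and 42.9 CPM in PP and at 64.8, 56.0 and 66.9 CPM in PA/OA. The PP values were the lower ones, again without overlap, and the log2 fold change was -0.56 ± 0.08 (SE, adjusted p = 1.1e-06, edgeR). Within a library, where scaling plays no part, the ratio of Hsf2 to Hsf1 counts was 1.38, 1.46 and 1.34 in PP, against 0.373, 0.536 and 0.327 in PA/OA. The ratio was 3.46-fold higher in PP. Per length, Hsf2 was at 6.16 and Hsf1 at 5.99 CPM per kb in PP, against 2.64 CPM per kb for Hsf2 and 8.82 CPM per kb for Hsf1 in PA/OA. The exact two-sided permutation test gave p = 0.1, which is the smallest p that 3 against 3 libraries allow, for this ratio and for each of the 7 ratios computed, and 0.1 after adjustment over the 7.

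Promoter sequences are shown for genes that hold the long form of the heat shock element letters, and for the inducible HSP70 pair as the textbook targets of HSF1. Each runs from 120 bases before to 30 bases after the annotated start, from RefSeq on GRCm38.p6, the assembly of mm10. Capitals mark matches to GAANNTTC or TTCNNGAA, and to a longer form in which GAANNTTC is followed by NNGAA or TTCNNGAA by NNTTC; every long match holds a short one, and neighbouring matches may overlap. Hspd1 also holds the long form, in 1 of its promoter windows. Both of its windows overlap that of Hspe1 on the other strand, the one without the long form only at its edge. The stretches are Hspe1 at chr1:55088028-55088177 on the plus strand, Chordc1 at chr9:18292147-18292296 on the plus strand, Hsph1 at chr5:149636286-149636435 on the minus strand, Hspa1a at chr17:34972127-34972276 on the minus strand and Hspa1b at chr17:34959209-34959358 on the minus strand.
Hspe1: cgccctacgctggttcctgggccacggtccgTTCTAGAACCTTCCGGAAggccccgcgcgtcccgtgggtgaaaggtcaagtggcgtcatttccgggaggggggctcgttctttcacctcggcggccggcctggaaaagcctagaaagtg
Chordc1: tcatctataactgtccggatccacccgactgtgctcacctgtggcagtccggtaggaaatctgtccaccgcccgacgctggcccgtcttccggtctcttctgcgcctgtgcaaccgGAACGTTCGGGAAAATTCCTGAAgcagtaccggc
Hsph1: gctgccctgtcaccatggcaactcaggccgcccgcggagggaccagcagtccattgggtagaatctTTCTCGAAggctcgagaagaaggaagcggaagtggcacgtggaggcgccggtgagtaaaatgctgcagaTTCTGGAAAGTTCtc
Hspa1a: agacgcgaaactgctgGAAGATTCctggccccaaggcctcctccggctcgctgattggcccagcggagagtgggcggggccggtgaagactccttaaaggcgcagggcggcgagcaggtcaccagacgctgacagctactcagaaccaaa
Hspa1b: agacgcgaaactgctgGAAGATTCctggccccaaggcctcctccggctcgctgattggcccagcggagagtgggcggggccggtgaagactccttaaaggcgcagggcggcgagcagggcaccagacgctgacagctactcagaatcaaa

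RefSeq promoter windows of 300 bases, from 250 before to 50 after the start, were used for 25 of the 33 members. The 8 members without were Hsp90aa1, Cryab, Hspa8, Hsp90ab1, Hspa9, Hsf1, Cct4 and Pfdn1. Hspa9 and Pfdn1 lie on chromosome 18, which was left out for members but not for the genes they are set against. The short letters occurred on either strand in 12 of these 25 genes, or 48.0%, against 17.0% of 27025 genes with a window. The long form occurred in 4 of the 25, which were Chordc1, Hsph1, Hspd1 and Hspe1, or 16.0%, against 0.662% of all genes. The matches of Hspd1 and Hspe1 are the same stretch read on opposite strands, so it is counted for both genes. The members include genes chosen as heat-inducible, so these shares describe the list and test nothing about these data. By class, the short letters were found in 7 of 8 heat-inducible genes, in 3 of 7 CCT genes, and in Hspd1 and Hspe1. They were found in 0 of 4 constitutive and 0 of 3 prefoldin genes with a window. The constitutive count does not cover Hspa8 and Hsp90ab1, and the prefoldin count does not cover Pfdn1. Of the 4 genes with the long form, Chordc1, Hsph1 and Hspd1 were lower in PP and Hspe1 did not pass. Across the table, of 62 tested genes with the long form 20 were higher and 27 lower, against 39.3% higher and 37.9% lower among 10012 tested genes with a window. The windows of Hspa1a and Hspa1b were identical at 296 of 300 bases.

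The heat-inducible genes divided evenly, with 4 higher and 4 lower in PP among the 8 tested (35.1% and 39.9% of all genes tested). Their median log2 fold change was -0.17. Scaled by library size alone, 3 rose and 5 fell (20.6% and 56.7% of all genes). The sign of the median rests on Hspb1, a gene of few counts: where a stricter filter or halved counts left it out, the median was 0.19 or 0.22, with 4 higher and 3 lower. The most inducible genes, Hspa1a and Hspa1b, were near silent in both groups. Hspa1b had 13, 19 and 10 counts in PP replicates 1 to 3, against 2, 5 and 1 counts in PA/OA replicates 1 to 3. Its PP counts were the higher ones in every library, but all were too few for the filter, so no test was made. Summed over libraries, 42 counts in PP against 8 in PA/OA gave a TMM-scaled ratio of 5.95, with an exact 95% interval of 2.76 to 14.7 that covers counting error only. Hspa1a had 1, 5 and 0 counts in PP and 0, 1 and 0 counts in PA/OA, a ratio of 6.80 with an interval of 0.825 to 313. The log2 ratio of their summed counts to Hspa8 was 2.47 higher in PP, and 3.14 without PA/OA replicate 2 or 1.93 without PA/OA replicate 3. These neighbours lie 9951 bases apart on chromosome 17, and 48.6% of the 100-base words of Hspa1a occur in other genes, mostly in Hspa1b, so the split of reads between them is uncertain.

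Dnajb1 encodes the J-domain partner of inducible HSP70. It was at 104, 113 and 104 CPM in PP and at 49.7, 52.5 and 55.4 CPM in PA/OA. The groups lay far apart, and the difference was 2.04-fold (log2 fold change 1.03 ± 0.06, SE, adjusted p = 3.58e-12, edgeR). Cryab, the small heat shock protein alpha-B-crystallin that holds unfolded proteins in solution, was at 49.1, 53.3 and 46.2 CPM in PP and at 25.1, 23.5 and 24.5 CPM in PA/OA. All PP values were higher, with a log2 fold change of 1.02 ± 0.08 (SE, adjusted p = 1.65e-10, edgeR). Of the Cryab exon bases 17.0% also lie in Hspb2 exons, so part of its reads could belong there. Bag3, which links HSP70 clients to selective autophagy, was at 45.5, 48.4 and 47.7 CPM in PP and at 25.4, 23.8 and 26.6 CPM in PA/OA. It too was higher in every PP library, with a log2 fold change of 0.90 ± 0.08 (SE, adjusted p = 9.34e-10, edgeR).

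Chordc1 went the other way, as did Hsph1 and Dnaja1. Chordc1, whose product is an HSP90 cochaperone, was at 44.7, 43.5 and 48.2 CPM in PP and at 87.5, 95.0 and 85.5 CPM in PA/OA. The PP level was 1.96-fold lower without overlap (log2 fold change -0.97 ± 0.07, SE, adjusted p = 2.22e-11, edgeR). Hsph1, the inducible HSP110, averaged 25.7 ± 0.0945 CPM in PP and 38.7 ± 2.64 CPM in PA/OA (SD, n = 3 each; log2 fold change -0.59, adjusted p = 1.15e-06, edgeR). Dnaja1, a farnesylated J-domain protein, was at 61.2, 67.0 and 68.3 CPM in PP and at 107, 124 and 110 CPM in PA/OA (log2 fold change -0.80, adjusted p = 5.11e-10, edgeR). Both were thus lower in every PP library than in any PA/OA library.

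The remaining inducible genes rest on weaker ground. Hspb1, a small heat shock protein, had only 7, 12 and 6 counts in PP and 39, 23 and 16 counts in PA/OA, and it passed the filter through the PA/OA libraries. Its log2 fold change was -1.44 ± 0.51 (SE, adjusted p = 0.015, edgeR), and the call was lost without PP replicate 3 (-1.20, adjusted p = 0.067) or without PA/OA replicate 1 (-1.07, adjusted p = 0.126). With the abundance trend removed it was at -0.043 and did not pass. Hsp90aa1, the inducible HSP90, averaged 675 ± 35.7 CPM in PP and 570 ± 35.5 CPM in PA/OA (SD, n = 3 each; log2 fold change 0.25, adjusted p = 0.000552, edgeR), but was lower in PP with library size only, at -0.19, and with the abundance trend removed, at -0.39.

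All 6 constitutive genes were higher in PP under TMM scaling, against 35.1% of all genes tested and 60.8% of the 5769 abundant ones. Their median log2 fold change was 0.62, but 3 rose and 1 fell when libraries were scaled by size alone (20.6% and 56.7% of all genes). With the abundance trend removed 2 rose and 3 fell, with a median of -0.044, where 35.7% of all genes rose and 35.4% fell. Hspa4l, an HSP110 gene on mm10 chromosome 3 from 40744495 to 40796103, changed most. It was at 760, 735 and 766 CPM in PP and at 287, 284 and 271 CPM in PA/OA. The libraries of a group were close to each other and the groups far apart, at 2.68-fold (log2 fold change 1.42 ± 0.05, SE, adjusted p = 3.73e-16, edgeR). Its paralog Hspa4 was at 637, 632 and 618 CPM in PP and at 347, 376 and 353 CPM in PA/OA, also higher in every PP library (log2 fold change 0.81, adjusted p = 5.25e-12, edgeR). The ratio of Hspa4l to Hspa4 counts within a library averaged 1.2 ± 0.038 in PP and 0.783 ± 0.039 in PA/OA (SD, n = 3 each), without overlap.

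Hsp90ab1, the constitutive HSP90, had the highest level per length of all members, at 1169 CPM per kb in PP and 620 CPM per kb in PA/OA. It was at 3456, 3662 and 3396 CPM in PP and at 1869, 1840 and 1871 CPM in PA/OA. The groups did not overlap (log2 fold change 0.91 ± 0.05, SE, adjusted p = 4.16e-13, edgeR), though the fold change was 0.07 and no longer passed once the abundance trend was removed. Within libraries, the counts of Hsp90aa1 were 0.184, 0.193 and 0.201 of those of Hsp90ab1 in PP, against 0.295, 0.332 and 0.293 in PA/OA. This ratio was lower in every PP library than in any PA/OA library, by 1.59-fold, although 47.5% of the 100-base words of Hsp90aa1 also occur in other genes.

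Hspa8, Dnaja2 and Stip1 changed less, and their direction turned with the scaling. Hspa8, the constitutive HSP70, averaged 993 ± 87.3 CPM in PP and 740 ± 19.1 CPM in PA/OA (log2 fold change 0.42, against -0.012 with library size only), and 62.8% of its 100-base words occur in other genes, which had 325 counts in PP and 240 in PA/OA. Dnaja2, a J-domain protein, averaged 306 ± 10.3 CPM in PP and 241 ± 19.2 CPM in PA/OA (0.34, against -0.090). Stip1, the adaptor that joins HSP70 to HSP90, averaged 328 ± 5.90 CPM in PP and 283 ± 7.98 CPM in PA/OA (0.21, against -0.22; SD, n = 3 each for these genes). The ratio of Dnaja1 to Dnaja2 counts does not depend on scaling, and it was 0.206, 0.211 and 0.226 in PP and 0.480, 0.474 and 0.464 in PA/OA. The balance of these J-domain genes thus lay 2.21-fold lower in PP, with a narrow range in each group. Of the 100-base words of Dnaja1 14.8% occur in other genes, and 10.8% of its exon bases are shared with exons of other genes.

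**Figure D3:**
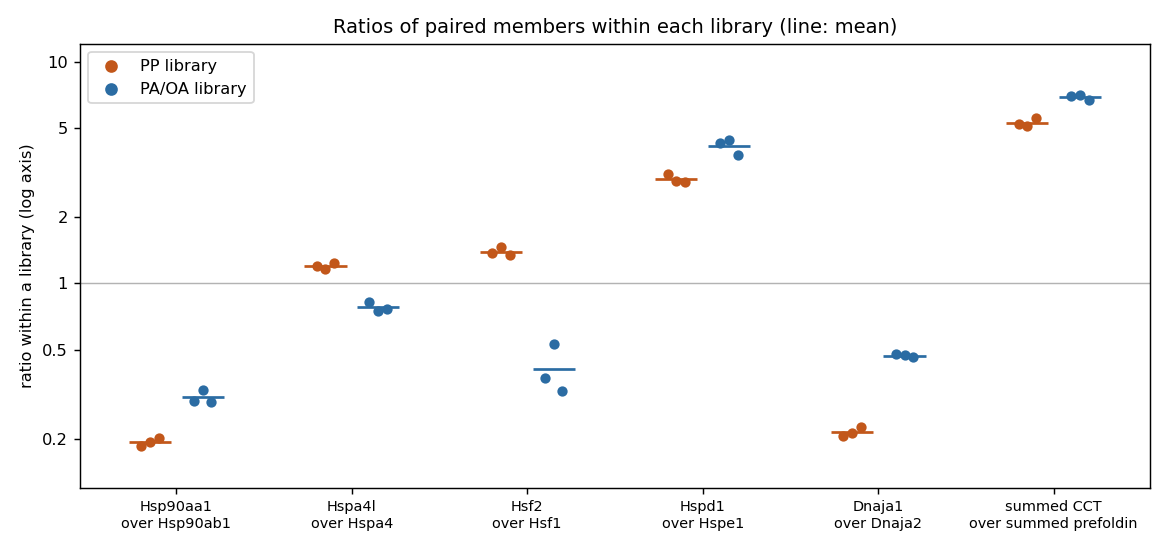
Ratios of paired members within each library on a log axis, with PP left of PA/OA; points are libraries, lines means, and CCT over prefoldin is on counts per kb. The groups do not overlap in any ratio drawn, and the widest gap is that of Hsf2 over Hsf1, at 1.34 to 1.46 in PP and 0.327 to 0.536 in PA/OA.

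Of the mitochondrial chaperones 1 was higher, 1 lower and 1 did not pass under TMM scaling, while 1 rose and 2 fell on library size alone. Of all genes tested 35.1% were higher and 39.9% lower under TMM scaling, and 20.6% and 56.7% on library size alone. Hspa9, the mitochondrial HSP70 that pulls proteins through the inner membrane, was at 2666, 2783 and 2689 CPM in PP and at 1534, 1625 and 1537 CPM in PA/OA. It was higher in every PP library (log2 fold change 0.79, adjusted p = 4.64e-12, edgeR), but at -0.016 with the abundance trend removed. Hspd1, the mitochondrial chaperonin, was at 410, 437 and 442 CPM in PP and at 540, 566 and 551 CPM in PA/OA, lower in PP without overlap (log2 fold change -0.36, adjusted p = 1.89e-06, edgeR). Hspe1, its lid, was at 132, 151 and 154 CPM in PP and at 125, 128 and 145 CPM in PA/OA. These ranges overlapped (log2 fold change 0.14 ± 0.07, SE, adjusted p = 0.0674, edgeR), and the fold change was -0.30 and past the threshold with library size only. Hspe1 was called higher under TMM scaling without PP replicate 1 (0.23) or without PA/OA replicate 3 (0.21). Hspd1 and Hspe1 lie head to head on chromosome 1 and overlap by 112 bases, yet their count ratio was 3.11, 2.89 and 2.87 in PP and 4.31, 4.43 and 3.81 in PA/OA. The chaperonin gene was thus lower relative to its lid in every PP library, by 1.41-fold. Of the 100-base words of Hspd1 26.9%, and of those of Hspe1 20.4%, occur in other genes.

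The 8 CCT subunits, which assemble in equal numbers in each ring, did not move together at the mRNA level. Under TMM scaling 6 were higher and 2 lower in PP (35.1% and 39.9% of all genes tested, 60.8% and 24.8% of the 5769 abundant ones). Scaled by library size alone 2 rose and 4 fell (20.6% and 56.7% of all genes). With the abundance trend removed 2 rose and 6 fell (35.7% and 35.4% of all genes). Cct3, on mm10 chromosome 3 from 88297116 to 88321767, was at 110, 112 and 113 CPM in PP and at 287, 311 and 317 CPM in PA/OA. It was lower in every PP library by 2.73-fold (log2 fold change -1.45 ± 0.06, SE, adjusted p = 8.59e-16, edgeR). No 100-base word of Cct3 occurs in another gene and none of its exons overlaps an exon of another gene.

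Cct4 was at 656, 708 and 677 CPM in PP and at 349, 386 and 336 CPM in PA/OA, 1.91-fold higher in PP (log2 fold change 0.93 ± 0.06, SE, adjusted p = 2.86e-12, edgeR). Tcp1, the subunit that gave the complex its other name TRiC, was at 580, 615 and 590 CPM in PP and at 341, 363 and 338 CPM in PA/OA (log2 fold change 0.78, adjusted p = 1.19e-11, edgeR). Both were higher in every PP library, while 16.9% of the exon bases of Tcp1 are shared with other genes. Cct2, Cct5, Cct7 and Cct8 had log2 fold changes from 0.22 to 0.36 that were called higher under TMM scaling, yet lay between -0.22 and -0.077 with library size only. Cct6a averaged 254 ± 13.0 CPM in PP and 290 ± 16.7 CPM in PA/OA (SD, n = 3 each; log2 fold change -0.19, adjusted p = 0.00518, edgeR), and the call was lost without PP replicate 1 (-0.12, adjusted p = 0.103).

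Shares within the CCT family do not depend on library scaling. Of the summed CCT counts per kb, Cct3 made up 1.65 ± 0.05% in PP and 5.67 ± 0.24% in PA/OA. Tcp1 made up 11.1 ± 0.16% in PP and 8.18 ± 0.14% in PA/OA, and Cct4 made up 15.2 ± 0.13% in PP and 10.1 ± 0.48% in PA/OA (SD, n = 3 each). Cct6a stood at 6.60 ± 0.15% in PP and 9.48 ± 0.21% in PA/OA. Equal shares would be 12.5%. By this measure Cct3 had the smallest share in both groups, and a smaller one in PP than in PA/OA. The deposited length of Cct3 is 6370 bases, while its longest coding transcript has 1977 bases. Its rank among the subunits in PA/OA thus depends on the length used. Shares per kb use the deposited gene length, which equals the summed GENCODE exon length for 30 of the 33 members and can understate a gene whose transcripts use few of those exons.

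**Figure D4:**
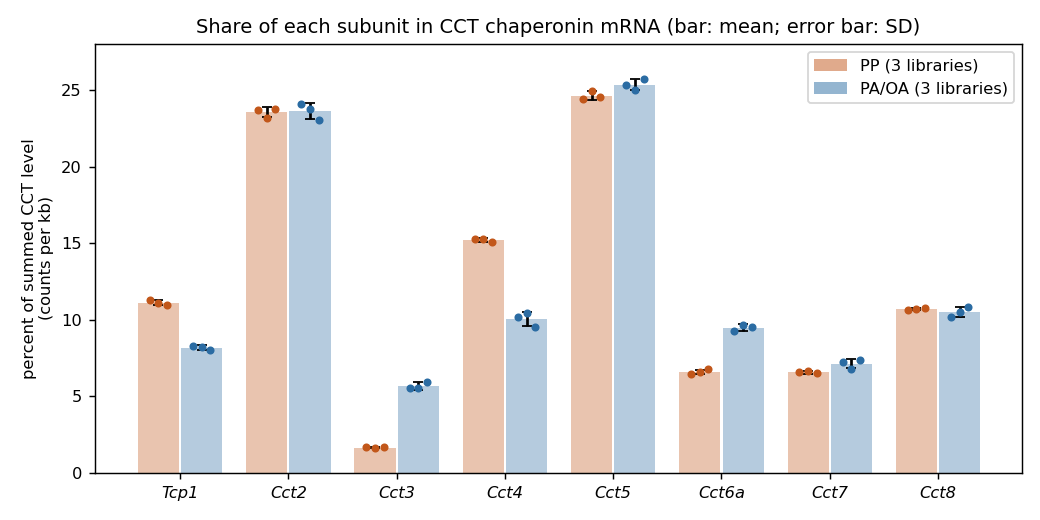
Share of each CCT subunit in the summed CCT counts per kb, in percent, with PP bars left of PA/OA bars; bars are means, error bars the SD and points the 3 libraries. Cct3 makes up 1.65% in PP and 5.67% in PA/OA, while Tcp1 and Cct4 take larger shares in PP.

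All 4 prefoldin genes were higher in PP under TMM scaling, against 35.1% of all genes tested and 60.8% of the 5769 abundant ones. Their median log2 fold change was 0.61. With library size only Pfdn5 alone passed, where 20.6% of all genes were higher. Pfdn5 was at 113, 124 and 115 CPM in PP and at 55.6, 58.8 and 63.9 CPM in PA/OA. All PP values were higher, by 1.97-fold (log2 fold change 0.98 ± 0.07, SE, adjusted p = 9.66e-12, edgeR), with 11.8% of its exon bases shared with Myg1 on the same strand. Pfdn1 was at 91.9, 101 and 85.7 CPM in PP and at 61.9, 65.8 and 63.2 CPM in PA/OA (log2 fold change 0.55, adjusted p = 2.09e-07, edgeR). Pfdn2 was at 42.7, 50.2 and 46.8 CPM in PP and at 29.3, 30.6 and 33.3 CPM in PA/OA (0.59, adjusted p = 1.41e-06, edgeR). Pfdn4 was at 17.2, 18.3 and 16.8 CPM in PP and at 11.6, 13.8 and 8.29 CPM in PA/OA (0.63, adjusted p = 0.000403, edgeR). None of these overlapped between groups, as was so for 77.4% of all genes tested. Of the exon bases of Pfdn2 27.6%, and of those of Pfdn4 28.7%, also lie in genes on the opposite strand. With library size only the fold changes of Pfdn1, Pfdn2 and Pfdn4 were 0.11, 0.15 and 0.20 and did not pass. Summed CCT per kb was 5.23, 5.11 and 5.55 times the sum of these 4 prefoldin genes in PP and 6.99, 7.05 and 6.70 times in PA/OA. The ratio was 1.30-fold lower in PP without overlap. The sum leaves out the canonical subunits Vbp1 and Pfdn6, so it is part of prefoldin only.

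Taken as a share of all counts, the 33 members made up 1.27%, 1.32% and 1.28% of the PP libraries and 1.18%, 1.22% and 1.18% of the PA/OA libraries. Hsp90ab1 and Hspa9 alone made up 0.531%, 0.547% and 0.525% in PP and 0.398%, 0.40% and 0.396% in PA/OA. The other members summed to 0.739%, 0.774% and 0.758% in PP and to 0.777%, 0.817% and 0.788% in PA/OA. Hsp90ab1 and Hspa9 had the most counts of all members. Without them the others together took a smaller share in every PP library than in any PA/OA library. They were not the only members to rise, since on library size alone 11 members rose and 13 fell. Of these Hspa4l rose most, with a log2 fold change of 0.99.

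**Figure D5:**
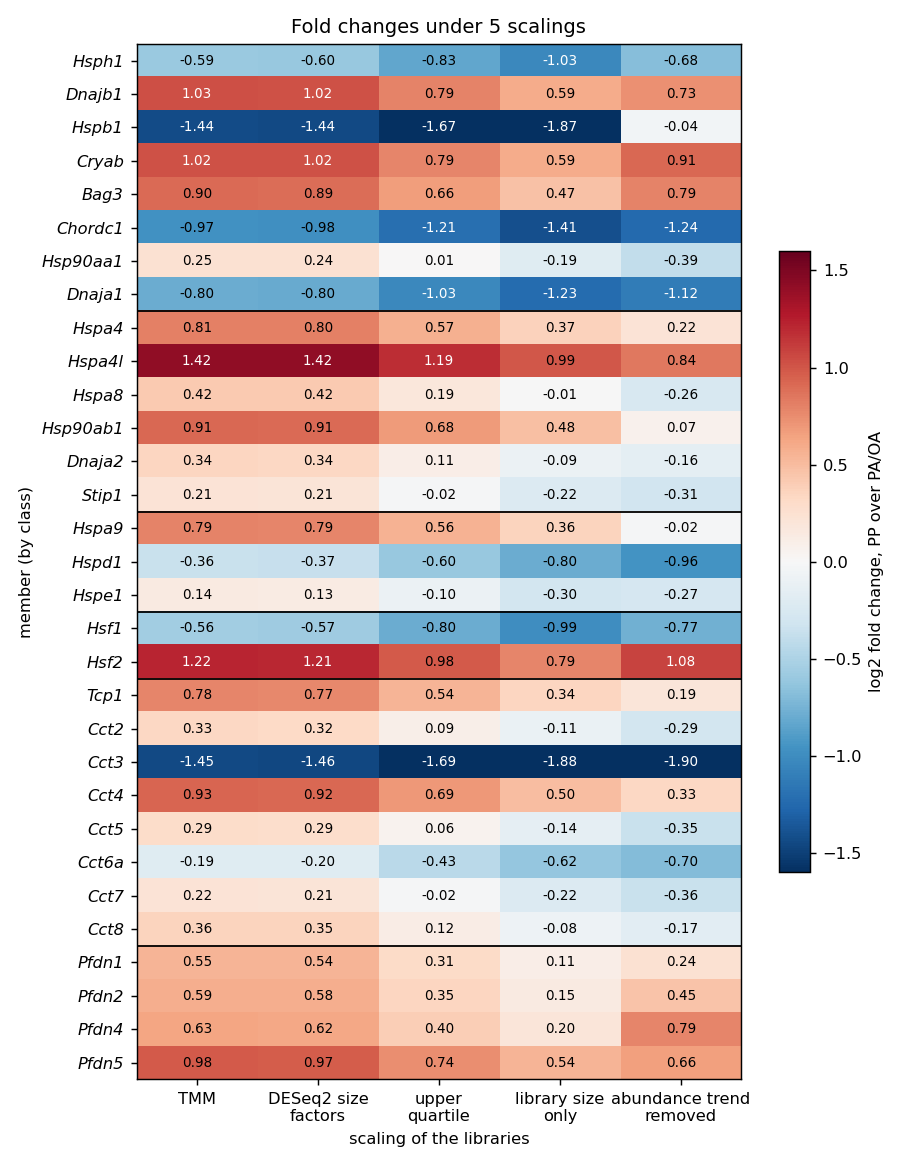
Log2 fold change of PP over PA/OA for each tested member (rows, by class) under 5 scalings of the libraries (columns); colour gives sign and size. Hspa4l, Hsf2, Dnajb1 and Cct3 keep their sign in all columns, while Hspa8, Cct5 and Stip1 change it.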

How the data were processed

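The authors deposited raw counts per gene, which per the submitters' processing notes came from featureCounts on mm10, with DESeq2 1.16.1 named without its role; aligner, annotation and strand setting: not given in the sources used here. From the deposited counts a fit over all genes was made with edgeR 4.0.16 (R 4.3.3): filterByExpr (15718 kept), TMM scaling, glmQLFit and glmQLFTest, two-sided, Benjamini-Hochberg, threshold 0.05. Fold changes are PP over PA/OA, SEs come from the fold change and F, and CPM are TMM-scaled. Within-library ratios were compared by an exact permutation test. All members are named; of each further list, up to 4 genes with the smallest p and, where 5 or fewer, those against the majority. 1 gene that this rule names is not reported here. Members and lists were chosen with earlier results of these data known. Low counts were even in 57.1% to 61.5% of cases, so counting intervals may be too narrow. No replicate pair agreed within sampling noise (halved counts, chi-square of 3.15 to 5.01 per gene). The fit was tested on simulated data. Alternatives were DESeq2 1.42.0 (size factors and tool), limma 3.58.1 voom, library size, upper quartile, other filters, a replicate block, protein-coding genes only, halved counts, removal of the lowess abundance trend (span 0.4), and leaving out each library. Shared 100-base words and exon overlaps used GENCODE M21.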

Additional observations from a re-analysis of the deposited data

How the results depend on the processing

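DESeq2 size factors, DESeq2 and limma-voom left the calls of the 31 members tested as they were. With no filter Hspe1 and Hspa1b passed too (24 higher). A minimum of 1 CPM in 3 libraries and halved counts dropped Hspb1, and protein-coding genes only dropped Cct6a, so that 7 were lower. Library size only gave 11 members higher and 13 lower (20.6% and 56.7% of all genes), with a median of -0.077. Upper-quartile scaling gave a median of 0.12. Removal of the abundance trend gave 12 higher and 16 lower (35.7% and 35.4% of all genes), with a median of -0.16. These scalings moved the median of all genes by -0.43 (library size) and -0.24 (upper quartile). Leaving out 1 library gave 22 to 24 higher, 7 to 8 lower and medians of 0.32 to 0.42. Replicate numbers did not pair the samples (correlations of same-numbered deviations of -0.02 to 0.005), and the replicate block gave 23 higher and 8 lower, the added call being Hspe1 (adjusted p = 0.0382, edgeR).

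With library size only, fold changes changed sign for Hsp90aa1 (-0.19), Hspa8 (-0.012), Dnaja2 (-0.090), Stip1 (-0.22), Hspe1 (-0.30), Cct2 (-0.11), Cct5 (-0.14), Cct7 (-0.22) and Cct8 (-0.077), with upper-quartile scaling for Stip1 (-0.023), Hspe1 (-0.10) and Cct7 (-0.020), and with the trend removed for Hsp90aa1 (-0.39), Hspa8 (-0.26), Dnaja2 (-0.16), Stip1 (-0.31), Hspa9 (-0.016), Hspe1 (-0.27), Cct2 (-0.29), Cct5 (-0.35), Cct7 (-0.36) and Cct8 (-0.17). Class medians changed sign for heat-inducible genes at 1 CPM in 3 libraries (0.19) and on halved counts (0.22), both of which drop Hspb1, for constitutive genes with the trend removed (-0.044), for mitochondrial genes with library size (-0.30), upper quartile (-0.10) and trend removed (-0.27), for heat shock factors with library size (-0.10), and for CCT with library size (-0.12) and trend removed (-0.32). On library totals, the log2 ratio of summed level was -0.28 for heat-inducible genes, -0.22 for heat shock factors and -0.12 for CCT. The cause was not tested. Leaving out 1 library moved log2 ratios to -1.18 to -1.11 for Dnaja1 over Dnaja2, 1.64 to 1.99 for Hsf2 over Hsf1, -0.70 to -0.61 for Hsp90aa1 over Hsp90ab1, 1.93 to 3.14 for Hspa1a plus Hspa1b over Hspa8, 0.59 to 0.66 for Hspa4l over Hspa4, -0.57 to -0.46 for Hspd1 over Hspe1 and -0.42 to -0.36 for CCT over prefoldin. Depth limits Hspa1a, Hspa1b and Hspb1.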

Other observations

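Other genes of protein folding, on lists of 110 genes of which 106 were tested, were called higher in 61 cases and lower in 30 by edgeR under TMM scaling, against 35.1% and 39.9% of all genes tested and 60.8% and 24.8% of genes with an average log2 CPM of 5 or more. Scaled by library size alone, 39 were higher and 50 lower (20.6% and 56.7% of all genes tested). Under upper-quartile scaling 49 were higher and 40 lower (27.0% and 48.9% of all genes), so the majority direction in the lists turned with the scaling. For each list below, the shares of all genes are 35.1% and 39.9% under TMM scaling and 20.6% and 56.7% on library size alone. The lists come from general knowledge of the pathway and were written with earlier results of these data known. Of the endoplasmic reticulum chaperones 13 of 14 were higher and 0 lower, with a median log2 fold change of 0.68, and scaled by library size alone 7 rose and 2 fell. Hsp90b1 (1.40), Calr (1.34), Pdia6 (1.30) and Hspa5 (1.24), which fold secreted and membrane proteins, led by p, and Sdf2l1 (-0.11) did not pass. Of other heat shock response genes 7 were higher and 4 lower, and scaled by library size alone 6 were higher and 4 lower. Dedd2 (2.23), Zfand2a (1.57), which is induced by arsenite, and Ubb (1.45) were among the higher ones, and Ahsa1 (-0.999), Serpinh1 (-0.97), Cacybp (-0.69) and Fkbp4 (-0.28) were lower.

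The HSP70 cochaperones were higher in 7 of 11 cases, among them St13 (1.19), Bag6 (1.13) and Sgta (1.11), while the nucleotide exchange factor Hspbp1 (-2.38), Bag5 (-0.40) and Dnajc7 (-0.27) were lower. Scaled by library size alone, 6 HSP70 cochaperones were higher and 4 lower (20.6% and 56.7% of all genes). HSP90 cochaperones were mixed, with 6 higher, 5 lower and 3 not past, and scaled by library size alone 1 higher and 11 lower; Sugt1 (0.83) and Ptges3 (0.55) stood against Ahsa1, Unc45a (-0.82), Ppid (-0.69), Fkbp4 and Cdc37l1 (-0.17). Among other cytosolic J-domain proteins 8 of 14 were higher, led by Dnajc21 (1.41), Dnajc5 (1.09) and Dnajc8 (0.80), and 5 were lower, which were Dnajb5 (-2.02), Dnajb14 (-1.44), Dnajc27 (-0.84), Dnajc17 (-0.84) and Dnajc2 (-0.37). On library size alone 5 were higher and 7 lower. Other HSP70 and small heat shock proteins had 3 higher, 3 lower and 3 not past, with Hspb11 (1.28), Hspa13 (0.96) and Hspb8 (0.43) higher and Hspb6 (-1.38), Hspb7 (-1.63) and Hspa12b (-3.52) lower. Hspb7 and Hspa12b rest on at most 37 counts in a library, and on library size alone the list had 2 higher and 6 lower. Mitochondrial partners were higher in 6 of 10 cases, with Hscb (1.33), Clpx (1.21), Grpel2 (0.77) and Dnaja3 (0.63), and lower for Trap1 (-0.69), Dnajc19 (-0.48) and Clpp (-0.32). Scaled by library size alone, 4 of these partners were higher and 4 lower.

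The clients of CCT and prefoldin also went both ways. Of 12 actin and tubulin genes tested 8 were higher, among them Tubb2b (1.69), Tubb5 (1.43) and Actg1 (1.23), and 4 were lower, which were Actb (-0.86), Tuba1a (-0.77), Tuba1c (-0.54) and Tuba1b (-0.24). On library size alone 6 of these 12 were higher and 4 lower (20.6% and 56.7% of all genes). Tubulin cofactors had 3 higher, with Tbca (1.34), Tbcel (0.84) and Arl2 (0.78), and 2 lower, with Tbcc at -1.12 and Tbce at -0.27. On library size alone these cofactors had 3 higher and 4 lower. Of other prefoldin and prefoldin-like genes Vbp1 (0.78) was higher and Uri1 (-0.76), Pfdn6 (-0.51) and Uxt (-0.40) lower, so the 6 canonical prefoldin subunits were not all higher. On library size alone this list had 1 higher and 4 lower. Of the chaperonin cofactors Pdcl (0.45) and Pdcl3 (0.19) were higher, and Cct6b (1.06) and Txndc9 (0.093) did not pass, while on library size alone 0 were higher and 2 lower, and on DESeq2 size factors 1 was higher. All values in parentheses are log2 fold changes of PP over PA/OA under TMM scaling.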
